A study of Mus musculus with 12 samples.

Results

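The transcriptional response to kainate was examined in the hippocampus of mice labelled mutant, in a series on kainate-induced expression after CREB and CREM were lost, as its title has it. The response was read from 3 arrays of kainate-treated and 3 arrays of saline-treated animals labelled mutant, out of 12 arrays in the series. Probe sets entered the comparison if at least 3 of the 12 arrays read above 4 (log2), which 6334 of 12411 did, and 5925 of those carried 1 gene symbol. Each array held RNA pooled from the hippocampi of 3 animals, littermates of both sexes aged 5 to 6 weeks, caged singly and handled for 5 days. Kainate, an agonist of ionotropic glutamate receptors that evokes seizures, was given intraperitoneally at 20 mg/kg, and the animals were killed after 1 h; the other animals received saline. The remaining 6 arrays came from animals labelled control, 3 with kainate at the same dose and time and 3 with saline. The labels call the arrays biological replicates and number them 1, 2 and 3 in each group, without saying what a number stands for. The alleles, the driver of any recombinase, the genotype of the controls and the sex make-up of each pool are given neither in the labels nor in the title, and whether animals were shared between pools is not stated. In whole hippocampus, fewer cells of a type and less RNA per cell cannot be told apart.

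CREB and CREM are related basic leucine zipper factors that bind the cAMP response element, CRE, in gene promoters and recruit coactivators once a kinase has phosphorylated them. In hippocampal neurons, calcium entry during intense firing activates several kinase pathways, which switch on immediate early genes. Among the factors that control these genes are CREB family factors at CRE sites and serum response factor at CArG boxes. Seizures induced by kainate are a standard way to evoke this programme in many neurons at once, and the genes that rose within the hour in animals labelled mutant are described below by what their products do.

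Before the results, the arrays themselves were compared. The Creb1 probe set read 8.33, 8.26 and 8.10 in the 3 saline arrays labelled mutant and 8.47, 7.64 and 7.82 in the 3 kainate arrays, a difference of -0.26 (limma adjusted p = 0.976). In control arrays it read lower, at 7.58, 7.51 and 6.94 with saline and 7.14, 6.97 and 6.83 with kainate, which goes against the label. No source used here tells whether its probes fall inside the part that was deleted, and the Crem probe set stayed below the level of 4 in both groups (means 3.07 and 3.02), so neither probe set checks the label. For the labelled tissue, Slc17a7, the vesicular glutamate transporter of principal neurons, had mean levels of 10.78 and 10.67 with saline and kainate, and Fibcd1, a marker of the CA1 field, of 8.01 and 8.32. Array medians ran from 3.77 to 4.07 over the series, and 5741 to 6378 probe sets exceeded 4. With 3 arrays a group, precision is limited by their number.

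The pair numbered 1 stood apart from the pairs numbered 2 and 3. Across the 6334 probe sets (a description, since probe sets are no replicates) the kainate change within number 2 and that within number 3 correlated with r = 0.676, whereas number 1 correlated with number 2 at -0.0133 and with number 3 at 0.0147. A change over 1 on the log2 scale was reached by 28 probe sets within number 1, 96 within number 2 and 73 within number 3, and a change under -1 by 15, 157 and 88. In control arrays these counts were 22, 73 and 55 over 1 and 36, 125 and 233 under -1. Number 1 thus had the fewest in both genotypes. Measures of RNA quality, read from control genes, differed between the numbers after kainate. In the arrays labelled mutant, the log2 difference between the 3′ and 5′ probe sets of actin was 0.847, 0.875 and 0.872 in the saline arrays numbered 1, 2 and 3. It was 0.801, 1.10 and 1.33 in the kainate arrays. For Gapdh it was 0.0490, 0.191 and 0.0930 with saline and 0.0582, 0.436 and 0.244 with kainate. In the arrays labelled mutant, both measures were thus higher after kainate in numbers 2 and 3 and nearly level in number 1. In control arrays actin was also higher after kainate in numbers 2 (1.29, with saline 1.01) and 3 (1.01, with saline 0.768). Gapdh there was higher in number 2 (0.462, with saline 0.225) and lower in numbers 1 (0.0332, with saline 0.125) and 3 (0.0937, with saline 0.218). The part of these measures in the results was not tested. Values are therefore given for each number, and results are repeated without number 1.

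In the limma fit of all 12 arrays, where both genotypes share 1 estimate of the spread, 11 probe sets of 11 genes rose after kainate in the 6 arrays labelled mutant and none fell (adjusted p under 0.05), which is 0.174% and 0% of the probe sets tested. The 11 were Dusp5, Maff, Trib1, Csrnp1, Depp1, Spry2, Dusp4, Vgf, Rgs4, Fosl2 and Ccdc86, with log2 changes from 2.65 (6.28-fold) for Dusp5 to 0.94 (1.91-fold) for Ccdc86, Maff and Depp1 aside, whose saline arrays lay below the level of 4. In a fit of the 6 arrays alone, 2 of the 11 passed, Dusp5 and Rgs4, and with the block 1 did. All 11 belong to lists of activity-regulated genes, which were written with earlier results of these data known and are no independent evidence. Each of the 11 was higher in every kainate array than in every saline array, as were 232 probe sets in all (3.66%), and 346 were lower without overlap (5.46%). At an unadjusted p under 0.05 there were 398 probe sets in both directions.

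When the replicate number entered the fit as a block, 18 probe sets rose (0.284%) and 5 fell (0.0789%), and the 11 were among them. The block added Homer1, Irf2bp2, Fbxo33, Ciart, Apba1 and a second probe set of Fosl2 to those that rose, and Kctd4, Magt1, Tmem106b and Celf4 to those that fell, with 1 probe set without a gene symbol on each side. Without the arrays numbered 1, 272 probe sets rose (4.29%) and 324 fell (5.12%), again with the 11 among those that rose. These larger counts did not carry over to the pair left out. Of the 272, 104 (38.2%) had a positive change within number 1, where 41.8% of all tested probe sets did, and of the 324, 160 (49.4%) had a negative one, against 58.2% of all. Among the 272 were 21 probe sets of activity genes, and 20 of these were also higher within number 1. The exception was Kdm6b, whose labelled mutant arrays numbered 1 both read below the level of 4. Of the other 251, 84 were higher within number 1. The activity lists were written with earlier results of these data known. The 21 also include the 11, which had passed in a fit that held number 1. The agreement of the 21 with number 1 is therefore no independent evidence.

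**Figure D1:**
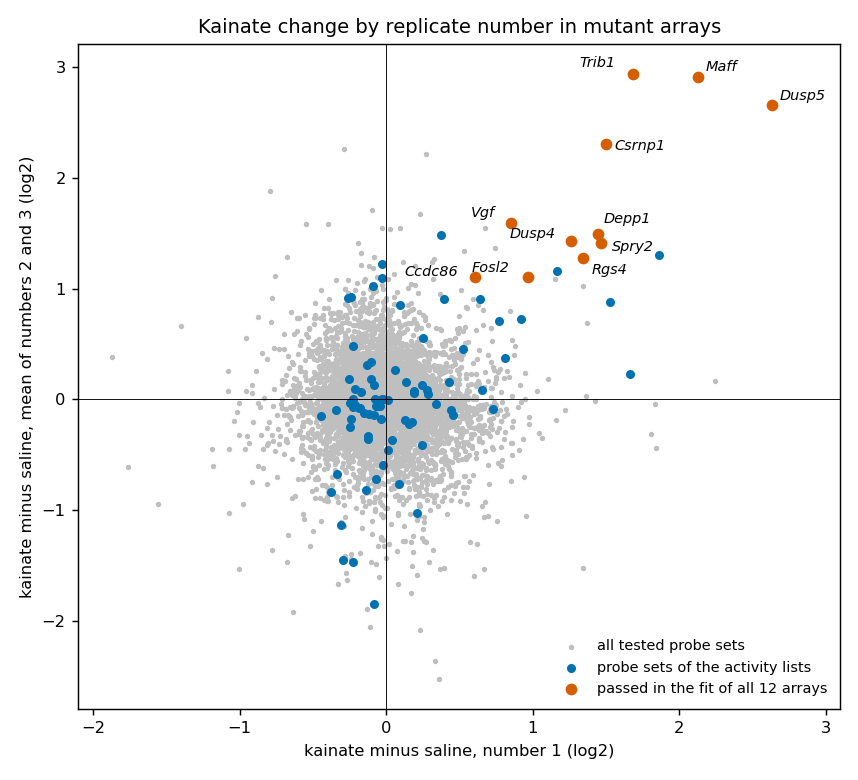
Kainate minus saline in the arrays labelled mutant (log2) for the pair numbered 1 (horizontal axis) against the mean of the pairs numbered 2 and 3 (vertical axis), with 1 point per tested probe set, the probe sets of the activity lists in blue and the 11 that passed in the fit of all 12 arrays in orange. The grey cloud of 6334 probe sets shows no common slope, while the 11 lie in the upper right, from Ccdc86 (0.60 in number 1) to Dusp5 (2.63 in number 1).

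The list of 199 activity-regulated genes had 88 on the array and 66 above the level of 4, with 91 probe sets. Of the 66, 11 rose and 0 fell, and 15 rose with the block. Their median change was 0.08, beside -0.02 over all 4617 named genes tested. Of the 91 probe sets, 27 (29.7%) had a mean change over 0.5 on the log2 scale, as had 168 of all 6334 (2.65%), and 14 (15.4%) had one over 1, as had 26 of all (0.41%). A change under -0.5 was seen for 9 of the 91 and 234 of all. Of the 66 genes, 21 (31.8%) were higher within every number and 10 (15.2%) lower, where 12% and 21.1% of all named genes were; over probe sets those shares were 10.8% higher and 22.8% lower. Without number 1, 20 of the 66 genes rose (30.3%, beside 5.37% of all named genes) and 7 fell (10.6%, beside 6.09%). Since the lists were written with earlier results of these data known, none of these shares is independent evidence. Several well-known members could not be followed, since Bdnf, Nr4a1, Per1, Sik1, Jund and Socs3 stayed below the level of 4.

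**Figure D2:**
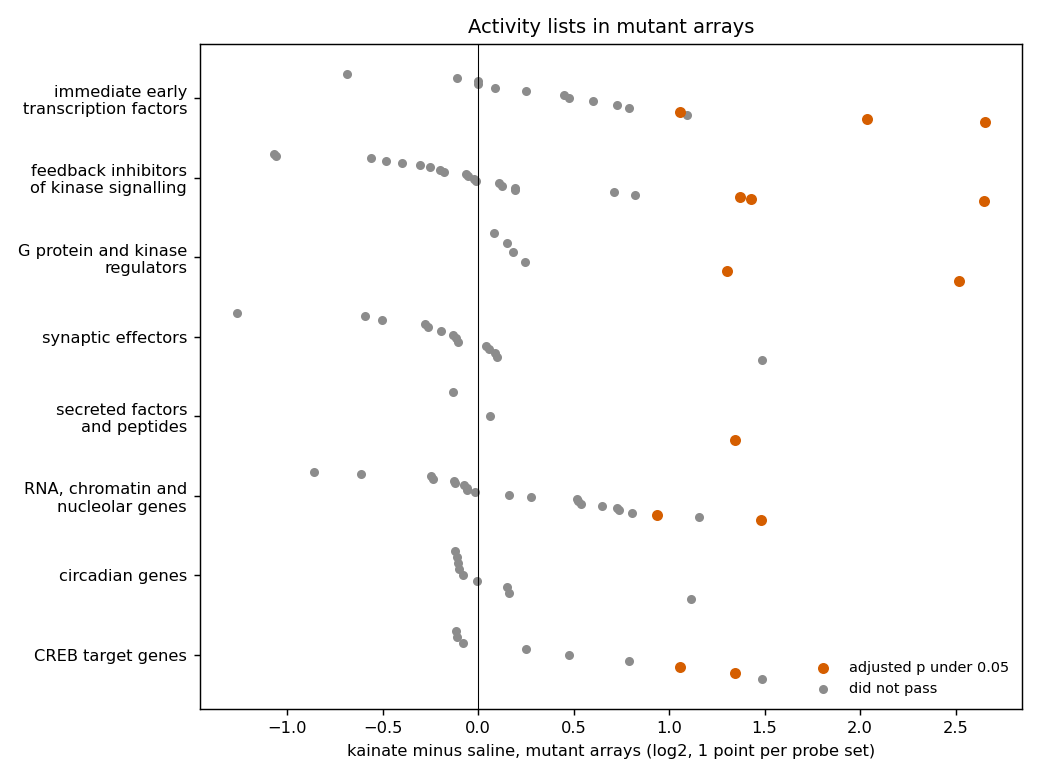
Kainate minus saline in the arrays labelled mutant (log2, mean of 3 against 3 arrays) for the 91 tested probe sets of 8 activity lists, 1 point per probe set and some genes in more than 1 list. Orange points passed at an adjusted p under 0.05 (limma); they stand at the right end of most lists, while most grey points lie between -0.5 and 0.5.

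Of 15 tested feedback inhibitors of kinase signalling, 3 rose, namely Dusp5, Spry2 and Dusp4, and 0 fell, with a median change of 0.11. These genes are induced by ERK, the kinase that carries growth factor and calcium signals to the nucleus, and their products then dampen it. Dusp5 encodes a nuclear phosphatase that removes the activating phosphates from ERK. Its saline arrays read 8.17, 7.99 and 8.04 (log2) and its kainate arrays 10.81, 10.63 and 10.72. The groups lay far apart and each was tight, with means of 8.07 ± 0.0954 and 10.72 ± 0.0900 (SD, n = 3). The change was 2.65 with a standard error of 0.115, a 6.28-fold rise (limma adjusted p = 1.65e-06), and within the numbers it was 2.63, 2.64 and 2.68. Dusp5 had the highest change of all tested probe sets within number 1, ranked 4 within number 2 and 2 within number 3, and it passed in a fit of the 6 arrays alone (adjusted p = 0.00151).

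Dusp4, a related nuclear phosphatase that acts on ERK and on stress-activated kinases, read 6.20, 6.34 and 6.27 with saline and 7.46, 7.98 and 7.49 with kainate. All 3 kainate arrays stood clearly above the saline arrays. The change was 1.37 (SE 0.152, 2.59-fold, limma adjusted p = 0.00383), from means of 6.27 ± 0.0704 and 7.65 ± 0.290 (SD, n = 3). A second Dusp4 probe set gave 0.19 and did not pass (adjusted p = 0.927), so the probe sets of this gene disagreed. Spry2, a Sprouty protein that blocks signalling from receptor tyrosine kinases to ERK, read 8.86, 9.22 and 8.97 with saline and 10.32, 10.75 and 10.26 with kainate. Its groups were separate, and the change was 1.43 (SE 0.165, 2.69-fold, limma adjusted p = 0.00457), with 1.47, 1.53 and 1.29 within the numbers. The other Sprouty genes tested, Spry1 and Spry3, gave 0.82 (adjusted p = 0.296) and -0.25 (adjusted p = 0.816), and Spry1 rose without number 1, by 0.91 (adjusted p = 0.0405). Dusp6, a cytoplasmic ERK phosphatase, gave 0.71 on average (adjusted p = 0.814), with 1.67, 0.10 and 0.36 within the numbers, so its mean rested on number 1. It read 3.42, 3.52 and 3.51 with saline and 5.09, 3.62 and 3.88 with kainate. All but the kainate array numbered 1 thus lay below the level of 4, and these changes are poorly measured. The Dusp6 probe set was tested only through arrays given kainate. Spred1, a membrane-bound inhibitor of the same pathway, had 5 probe sets with values of -1.07, -1.06, -0.56, -0.31 and -0.01, none of which passed with all 12 arrays. Without number 1, the first and the second of these fell, by 1.46 (adjusted p = 0.00166) and 1.48 (adjusted p = 0.00825), and they were -0.29 and -0.22 within number 1.

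The promoter of Dusp5 is shown with those of Maff, Ccdc86 and Rgs4. These 4 genes rose, and their windows hold the CRE or CArG letters through which CREB family factors or serum response factor are known to act. They are not all such genes: Csrnp1 also rose and holds CRE letters in each of its 4 windows, which are not shown. Homer1 and Apba1, which rose with the block, hold CRE letters as well. The windows run from 250 bases before to 50 after a gene's start and come from RefSeq (GRCm38.p6), read on the strand of the gene. Capitals mark 3 kinds of motif sought on both strands: the full CRE, TGACGTCA, its core, TGACG or CGTCA, which lies inside every full CRE, and the CArG box. Dusp5 lies at chr19:53528895-53529194 on the plus strand, and its window held CArG boxes at positions -82 to -73 and -72 to -63 and a CRE core at -55 to -51, counted back from -1, the base before the start. The Maff window shown, window 2 of 3, lies at chr15:79347270-79347569 on the plus strand, with a full CRE at -29 to -22. Ccdc86 lies at chr19:10949217-10949516 on the minus strand, with a full CRE at -23 to -16. Rgs4 lies at chr1:169747593-169747892 on the minus strand, with CRE cores at -236 to -232 and -141 to -137.
Dusp5 promoter: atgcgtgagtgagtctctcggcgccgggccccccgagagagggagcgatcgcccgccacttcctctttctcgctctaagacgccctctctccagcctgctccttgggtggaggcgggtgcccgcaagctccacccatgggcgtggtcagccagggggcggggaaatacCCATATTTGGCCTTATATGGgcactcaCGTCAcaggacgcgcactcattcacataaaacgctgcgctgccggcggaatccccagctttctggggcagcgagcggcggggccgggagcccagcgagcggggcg
Maff promoter: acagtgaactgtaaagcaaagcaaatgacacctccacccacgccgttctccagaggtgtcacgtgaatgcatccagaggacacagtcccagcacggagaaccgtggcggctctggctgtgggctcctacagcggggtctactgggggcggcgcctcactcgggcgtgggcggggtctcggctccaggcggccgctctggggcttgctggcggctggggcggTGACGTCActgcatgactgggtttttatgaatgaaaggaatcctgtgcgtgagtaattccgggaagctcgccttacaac
Ccdc86 promoter: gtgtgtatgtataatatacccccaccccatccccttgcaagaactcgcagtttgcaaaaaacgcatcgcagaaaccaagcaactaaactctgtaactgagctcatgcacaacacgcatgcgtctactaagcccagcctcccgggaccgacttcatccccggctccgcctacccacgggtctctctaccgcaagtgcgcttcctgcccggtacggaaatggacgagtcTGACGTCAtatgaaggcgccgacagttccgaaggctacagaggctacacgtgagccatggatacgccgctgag
Rgs4 promoter: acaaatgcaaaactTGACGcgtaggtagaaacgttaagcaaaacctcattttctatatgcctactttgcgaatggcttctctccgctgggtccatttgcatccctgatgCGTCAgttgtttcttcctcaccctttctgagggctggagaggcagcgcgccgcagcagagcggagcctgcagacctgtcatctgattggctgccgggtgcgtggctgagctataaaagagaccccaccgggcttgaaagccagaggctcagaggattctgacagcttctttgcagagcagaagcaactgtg

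Of the 11 genes that rose, 8 had a window in the RefSeq table, with 13 windows in all, and Trib1, Dusp4 and Vgf had none. A full CRE was found in 2 of the 8, Maff and Ccdc86, where 2.03% of all 27025 genes in the table held one. The CRE core was found in 5, those 2 with Csrnp1, Dusp5 and Rgs4 (62.5%, beside 23.0% of all genes), and a CArG box in Dusp5 alone (12.5%, beside 1.81%). Counted per window of equal length, the core was in 69.2% of the 13 and 20.8% of all 32851. Csrnp1 has 4 of the 13 windows and Maff 3, so this count weighs some genes more than once. Of the 13 genes with a window that rose with or without the block, 53.8% held the core and 15.4% a full CRE. An AP-1 site, TGANTCA, was found in 1 of the 4 Csrnp1 windows, and 8.97% of all genes held one. None of these letters was in the windows of Depp1, Spry2 and Fosl2. A match of letters describes the window and does not show that a factor binds there.

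Of 12 tested genes on the list of immediate early transcription factors, Maff, Csrnp1 and Fosl2 rose and 0 fell, with a median change of 0.35. Maff, a small Maf protein that pairs with other leucine zipper factors, read 3.30, 3.27 and 3.58 with saline and 5.43, 6.72 and 5.95 with kainate. The saline arrays were all below the level of 4 that marks a measured probe set, and the kainate arrays were all above it, so the probe set was tested only because of the arrays given kainate. The fitted difference was 2.65 (SE 0.271, limma adjusted p = 0.00219), from means of 3.38 ± 0.168 and 6.04 ± 0.651 (SD, n = 3), and it rests on saline values that are not well measured. Against the level of 4 itself, the kainate mean was at least 2.04 higher on the log2 scale, or at least 4.1-fold. Within the numbers the fitted difference was 2.13, 3.45 and 2.38. Csrnp1, a cysteine and serine rich nuclear protein that can activate transcription, read 5.09, 5.07 and 4.72 with saline and 6.59, 7.40 and 7.0 with kainate. No kainate array came near the saline range, and the change was 2.04 (SE 0.189, 4.1-fold, limma adjusted p = 0.00116). It was smallest within number 1, at 1.5, against 2.33 and 2.28.

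Fosl2 encodes Fra-2, a Fos family partner of Jun proteins, and is also on the list of CREB target genes. Its stronger probe set read 9.04, 9.18 and 9.20 with saline and 10.01, 10.29 and 10.29 with kainate, 2 groups that did not overlap. The change was 1.06 (SE 0.158, 2.08-fold, limma adjusted p = 0.0247) and nearly equal within the numbers, at 0.97, 1.11 and 1.09. The other probe set gave 0.79 and rose with the block (adjusted p = 0.624 without it and 0.0215 with it). Fbxo33, an F-box protein of ubiquitin ligases and so no transcription factor despite its place on the list, rose with the block only, from 6.47, 6.58 and 6.50 to 8.0, 7.41 and 7.42. Its change of 1.09 had an adjusted p of 0.0515 in limma without the block and 0.00872 with it. The orphan nuclear receptor genes gave smaller values, 0.48 for Nr4a3 (adjusted p = 0.431) and 0.25 for Nr4a2 (adjusted p = 0.891). Nr4a3 was steady within the numbers, at 0.52, 0.46 and 0.46, and rose without number 1, by 0.46 (adjusted p = 0.0369). Klf6, a zinc finger factor, gave 0.45 (adjusted p = 0.977). Srf, which encodes serum response factor, could not be given a direction: its 3 probe sets gave 0.73, 0.60 and -0.69, and none passed. Without number 1, 1 of them rose by 0.85 (adjusted p = 0.00718) and another fell by 0.84 (adjusted p = 0.0209).

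**Figure D3:**
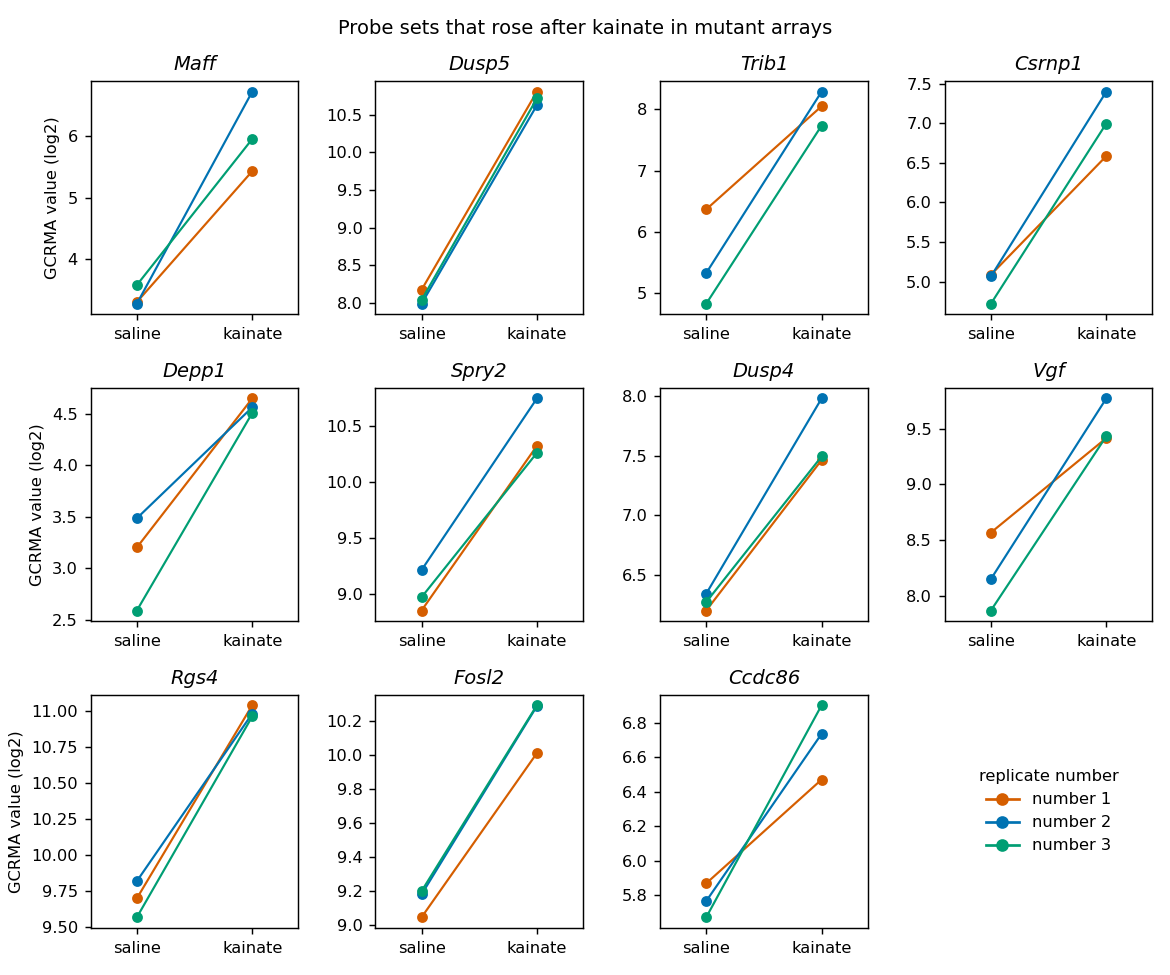
GCRMA values (log2) of the 11 probe sets that passed in the arrays labelled mutant, with saline at the left and kainate at the right of each panel and a line joining the arrays of the same replicate number; each panel has its own vertical scale, which does not start at 0. In every panel all 3 kainate values lie above all 3 saline values, and the lines of Dusp5 and Rgs4 nearly coincide.

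Among regulators of G proteins and kinases, 2 of the 6 tested genes rose and 0 fell, and the median change was 0.21. Rgs4 shortens signalling by Gq and Gi coupled receptors and is abundant in forebrain neurons. It read 9.70, 9.82 and 9.57 with saline and 11.04, 10.98 and 10.96 with kainate. The kainate arrays were almost identical to each other, with means of 9.69 ± 0.126 and 10.99 ± 0.0405 (SD, n = 3) for the groups. Its change was 1.30 (SE 0.107, 2.46-fold, limma adjusted p = 0.000541) and 1.34, 1.16 and 1.4 within the numbers, and with Dusp5 it was 1 of the 2 genes that passed in a fit of the 6 arrays alone (adjusted p = 0.0324). Trib1, a pseudokinase that guides proteins to a ubiquitin ligase, read 6.37, 5.33 and 4.82 with saline and 8.05, 8.29 and 7.74 with kainate. The saline arrays were spread widely, number 1 being the highest, and still lay below all kainate arrays. The change of 2.52 (5.74-fold) had a larger error than that of the genes above, with SE 0.351 and a limma adjusted p of 0.0188, and within the numbers it was 1.69, 2.96 and 2.91. Trib2, its relative, gave 0.15 and did not pass (adjusted p = 0.976).

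Vgf, the precursor of secreted neuropeptides and a known CREB target, read 8.57, 8.15 and 7.87 with saline and 9.42, 9.77 and 9.43 with kainate. Its groups did not overlap, though the saline array numbered 1 was the highest of its group. The change was 1.35 (SE 0.200, 2.54-fold, limma adjusted p = 0.0247), with 0.85, 1.62 and 1.57 within the numbers. Of the 3 tested secreted factors Vgf rose, and Hbegf and Vegfa gave 0.06 and -0.13 without passing. None of the 9 tested synaptic effector genes passed without the block, and their median change was -0.10. Homer1, a scaffold of the postsynaptic density with a short form induced by activity, read 4.19, 4.17 and 4.17 with saline and 6.05, 5.92 and 5.02 with kainate on 1 probe set. The kainate values were spread while the saline values were nearly equal and close to the level of 4. That probe set rose with the block, by 1.49 (2.80-fold), with a limma adjusted p of 0.194 without the block and 0.0154 with it, and the other gave -0.11. Which Homer1 transcript each probe set reads is stated nowhere in the sources used. The values of Pcdh7, a protocadherin, Dlgap1, a postsynaptic scaffold, and Sv2b, a synaptic vesicle protein, lay lower after kainate within every number, at -1.26, -0.59 (the largest of 4 Dlgap1 probe sets) and -0.50, without passing. Without number 1, Homer1 rose by 1.30 (adjusted p = 0.0204) and these 3 fell, by 1.85, 0.82 and 0.72, and within number 1 they were -0.08, -0.14 and -0.07.

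Genes of RNA, chromatin and the nucleolus had 2 that rose among 13 tested, Ccdc86 and Depp1, and 0 that fell, with a median change of 0.16. Ccdc86, a nucleolar protein, read 5.87, 5.77 and 5.67 with saline and 6.47, 6.74 and 6.90 with kainate. The groups were separate, the kainate array numbered 1 being the lowest of its group. Its change was 0.94 (SE 0.138, 1.91-fold, limma adjusted p = 0.0247) and 0.60, 0.97 and 1.23 within the numbers. Depp1, a target of FoxO factors that stands on this list without being a chromatin gene, read 3.20, 3.48 and 2.59 with saline and 4.65, 4.56 and 4.51 with kainate. All saline arrays were below the level of 4 and all kainate arrays above it, so that, like Maff, it was tested only through the arrays where it was high. The fitted difference was 1.48 (SE 0.203, limma adjusted p = 0.0188), from 3.09 ± 0.458 to 4.57 ± 0.0714 (SD, n = 3), and against the level of 4 the kainate mean was at least 0.57 higher, or at least 1.49-fold. Irf2bp2, a transcriptional corepressor, rose with the block only, from 7.14, 6.95 and 6.99 to 8.31, 8.39 and 7.86, a change of 1.16 (adjusted p = 0.246 without the block and 0.0223 with it). The histone methyltransferase gene Dot1l gave 0.74 (adjusted p = 0.468) and the histone demethylase gene Kdm6b 0.65 (adjusted p = 0.977), the latter with -0.09, 1.07 and 0.97 within the numbers. Both rose without number 1, by 0.91 (adjusted p = 0.0344) and by 1.02 (adjusted p = 0.0295). The arrays numbered 1 read below the level of 4 for Kdm6b, at 2.32 with saline and 2.23 with kainate, so its change there is poorly measured. Mbnl2, a splicing regulator, had 7 probe sets with values from -0.86 to 0.80, none of which passed with all 12 arrays. Without number 1, the Mbnl2 probe sets opposed each other: 2 fell, by 1.03 (adjusted p = 0.00227) and 1.14 (adjusted p = 0.0155), while 4 gave 1.22 (adjusted p = 0.210), 0.92 (adjusted p = 0.223), 0.93 (adjusted p = 0.0578) and 1.10 (adjusted p = 0.0562), of which the last and the one before it passed with the block on numbers 2 and 3 (adjusted p = 0.0495 and 0.0457).

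Circadian genes had 8 tested members, of which none passed without the block. Ciart, a repressor of the circadian clock, read 5.89, 5.68 and 5.60 with saline and 6.26, 7.09 and 7.15 with kainate. The kainate array numbered 1 was far below the other kainate arrays, and still above all saline arrays. The change of 1.11 had a limma adjusted p of 0.180 without the block and 0.0407 with it, and within the numbers it was 0.37, 1.42 and 1.55; without number 1 it was 1.49 (adjusted p = 0.000659). Clock, Cry2, Hlf, Nr1d2 and Bhlhe41 had probe sets with values between -0.12 and 0.16.

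The list of CREB target genes is the one closest to the series title. Of 42 genes listed, 13 were on the array and 7 were tested. Fosl2 and Vgf rose, 0 fell, and Homer1 rose with the block. Nr4a3 rose in addition without number 1, so that 4 of the 7 rose in that fit (57.1%, beside 5.37% of all named genes). This list too was written with earlier results of these data known. The median change over the 7 was 0.25, beside -0.02 over all named genes. The others among the 7 were Nr4a2 with 0.25, Nfil3, a leucine zipper repressor, with -0.11, and Ppargc1a, a coactivator of mitochondrial genes, with -0.08. The other 6 genes on the array, Bdnf, Nr4a1, Per1 and Sik1 among them, were below the level of 4.

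No gene outside the activity lists passed in the fit of all 12 arrays without the block; without number 1, 251 of the 272 probe sets that rose and 315 of the 324 that fell were outside them. Apba1, an adaptor protein of synaptic vesicle release, rose with the block only, from 9.18, 8.49 and 8.51 to 9.90, 9.19 and 9.10. Its groups overlapped, with number 1 the highest array of each, and the change of 0.67 was 0.72, 0.70 and 0.59 within the numbers (limma adjusted p = 0.723 without the block and 0.0131 with it). Zmat5, a zinc finger protein of the minor spliceosome, had a mean change of 1.57 and did not pass (adjusted p = 0.656), and it was 0.27, 2.05 and 2.39 within the numbers; without number 1 it rose by 2.22 (adjusted p = 0.000503). A change over 0.5 within every number was seen for 30 probe sets, 16 of them on the activity lists, and a change under -0.5 within every number for 19, none of them on those lists.

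No probe set fell with all 12 arrays and no block, and 4 named genes fell with the block, namely Kctd4, Tmem106b, Magt1 and Celf4. Kctd4, a BTB domain protein, read 6.25, 6.89 and 6.87 with saline and 5.18, 5.54 and 6.16 with kainate. Its groups did not overlap, though the highest kainate array came close to the lowest saline array, and the change was -1.04 (adjusted p = 0.640 without the block and 0.0140 with it in limma). Tmem106b, a lysosomal membrane protein, read 10.30, 10.65 and 10.64 with saline and 9.80, 9.98 and 10.10 with kainate on the probe set that fell, a change of -0.57 (adjusted p = 0.0140 with the block), while its other probe sets gave -0.32 and -0.11. Magt1, a magnesium transporter, fell by 0.75 on 1 probe set (adjusted p = 0.0296 with the block), and its others gave -0.64 and 0.11. Celf4, an RNA-binding protein of neurons, read 8.41, 7.72 and 7.71 with saline and 7.94, 6.99 and 6.99 with kainate, groups that overlapped, with a change of -0.64 (adjusted p = 0.0387 with the block) and -0.14 on its other probe set. With the block and all arrays, the fall of Tmem106b, Magt1 and Celf4 was thus seen on 1 of several probe sets. Without number 1, a further probe set fell for Tmem106b, by 0.69 (adjusted p = 0.0131), with 0.44 within number 1, and for Magt1, by 0.88 (adjusted p = 0.0118). Several of the lowest values that did not pass with all arrays were also seen on 1 probe set of several. Of the values named here that did not pass, that of Ndrg3 was lowest, at -1.36 (limma adjusted p = 0.194) on its single tested probe set. Within the numbers it was -1.01, -1.25 and -1.81. Cdk5r1, the p35 activator of the kinase Cdk5, gave -1.20 on 1 probe set and 0.18 and 0.04 on the others. Slc25a22, a mitochondrial glutamate carrier, gave -1.15 and 0.17, Slc44a1, a choline transporter, -1.14 and -0.10, and Efr3a, a membrane scaffold, -1.09, -0.19 and -0.03. Deaf1, a transcription factor, gave -1.17 on its single tested probe set. Without number 1, all of these but Slc25a22 fell on the probe set with the lowest value: Ndrg3 by 1.53 (adjusted p = 0.00916), Cdk5r1 by 1.47 (adjusted p = 0.00102), Slc44a1 by 1.57 (adjusted p = 0.000659), Efr3a by 1.61 (adjusted p = 0.000900) and Deaf1 by 1.36 (adjusted p = 0.00941). A further Efr3a probe set then fell by 0.47 (adjusted p = 0.0291).

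Glutamate receptors and ion channels, which set how neurons answer to kainate, had no member that passed in either direction. No probe set with a single symbol for the kainate receptor genes Grik1 to Grik5 was in the table. Of 7 tested genes of the glutamate receptor list, the median change was -0.25, and the largest was that of Grm5, a metabotropic receptor, at -1.04 (limma adjusted p = 0.424). Its saline arrays read 7.02, 7.79 and 7.51 and its kainate arrays 6.74, 6.31 and 6.15, so that number 1 moved least, and without number 1 it fell by 1.42 (adjusted p = 0.00174). The AMPA receptor genes Gria1 and Gria3 gave -0.25 and -0.26, and their auxiliary subunits Cnih3 and Cacng2 0.34 and -0.30. Without number 1, Gria1 and Gria3 also fell, by 0.33 (adjusted p = 0.0417) and 0.51 (adjusted p = 0.0339). That made 3 of the 7 (42.9%, beside 6.09% of all named genes), and 0 rose. Within number 1 these 3 genes did not share a sign, at -0.28 for Grm5, -0.07 for Gria1 and 0.24 for Gria3. Of 16 voltage-gated channel genes the median was -0.01, and the potassium channel genes Kcna1 and Kcna2 had the values -0.57 and -0.42, lower within every number. Genes of sterol synthesis (11 tested, median -0.02) and heat shock proteins (8 tested, median 0.10) had no member that passed. Without number 1 the channel subunit gene Kcnip3 rose by 1.05 (adjusted p = 0.00992) and the sterol gene Idi1 fell by 0.63 (adjusted p = 0.0329), and both had the opposite sign within number 1.

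Markers of the cell types in hippocampal tissue were followed beside these results, and none of the 52 tested marker genes passed in either direction. The log2 of the summed level of 11 principal neuron markers ran from 12.35 to 12.57 in saline and from 12.32 to 12.42 in kainate arrays. For 15 astrocyte markers the ranges were 14.13 to 14.55 and 14.04 to 14.40, for 7 oligodendrocyte markers 10.44 to 10.77 and 10.24 to 10.65, and for 5 microglia markers 9.0 to 9.42 and 9.22 to 9.62. The 3 interneuron markers ran from 10.51 to 10.89 and from 10.37 to 10.82, and the 7 markers of endothelium and mural cells from 9.44 to 9.69 and from 9.33 to 9.71. The widest spread was among 3 choroid plexus markers, from 7.52 to 8.97 with saline and from 7.85 to 8.49 with kainate, and the single ependyma marker ran from 5.11 to 5.53 and from 4.77 to 5.08. In all of these lists but the last the ranges of saline and kainate arrays overlapped. Without number 1, the astrocyte genes Slc1a3, Slc4a4 and Glul fell and Ppp1r3c rose, as did Fibcd1 and the myelin gene Mobp. Slc1a3, a glutamate transporter, fell by 1.37 in that fit (adjusted p = 0.00119), against -0.89 with all arrays (adjusted p = 0.707), and Mobp rose by 1.58 (adjusted p = 0.00552) with -0.55 within number 1. Within number 1 that Slc1a3 probe set gave 0.07, and Fibcd1 gave -0.28. In the fit without number 1, other probe sets did not pass, at -0.30 for Slc1a3, 0.11 and 0.56 for Mobp, and -0.35 and -0.15 for Slc4a4. The interneuron gene Gad2 gave -0.84 (adjusted p = 0.818), and Gad1 and Olig2, defining markers of interneurons and the oligodendrocyte lineage, were below the level of 4.

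The response was set beside that of the control arrays to compare the genotypes. In control arrays 9 probe sets rose (0.142%) and 1 fell (0.0158%), while 37 passed with the block and 637 without number 1. The difference between the genotypes in response to kainate passed for no probe set (0%; limma, with 147 at an unadjusted p under 0.05, and 566 with the block, where none passed either). The difference also passed for no probe set without number 1. A difference that did not pass does not show that the responses were equal, so each is given with its error. Dusp5 rose in control arrays by 2.37 (adjusted p = 5.21e-06), and labelled mutant minus control was 0.28 (SE 0.162). For Maff the control change was 2.15 (adjusted p = 0.00990) and the difference 0.50 (SE 0.384). The saline arrays of Maff lay below 4 in both genotypes, with means of 3.38 in labelled mutant and 3.68 in control arrays. Its difference is therefore poorly measured. Trib1 rose by 2.24 in control arrays (adjusted p = 0.0410), Csrnp1 by 2.34 (adjusted p = 0.000438), Spry2 by 1.29 (adjusted p = 0.00990), Rgs4 by 1.10 (adjusted p = 0.00187) and Fosl2 by 1.03 (adjusted p = 0.0372). The differences for these 5 were 0.28 (SE 0.496), -0.31 (SE 0.267), 0.14 (SE 0.233), 0.20 (SE 0.152) and 0.03 (SE 0.223). Thus 7 of the 11 genes also rose in control arrays, and of those 7 Csrnp1 had a smaller value in the arrays labelled mutant and the other 6 a larger one, by differences that did not pass.

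The other 4, Dusp4, Ccdc86, Depp1 and Vgf, did not pass in control arrays without the block, and Vgf rose there with it (adjusted p = 0.0351). Dusp4 read 5.95, 6.28 and 6.03 in control saline and 6.33, 6.30 and 6.42 in control kainate arrays, a difference of 0.26 (limma adjusted p = 0.459). Labelled mutant minus control was 1.11 (SE 0.216, unadjusted p = 0.000372, adjusted p = 1.00 in limma). The second Dusp4 probe set gave 0.19 in labelled mutant and 0.39 in control arrays, which is the opposite order. Ccdc86 read 5.35, 5.59 and 5.68 and 5.43, 5.61 and 5.53 in the control groups, which overlapped, with kainate minus saline at -0.02 (adjusted p = 0.975) and a difference between genotypes of 0.95 (SE 0.196, unadjusted p = 0.000582, adjusted p = 1.00). Depp1 gave 0.74 in control arrays (adjusted p = 0.396) with a difference of 0.74 (SE 0.287), and Vgf gave 1.00 (adjusted p = 0.216) with a difference of 0.35 (SE 0.283). The saline arrays of Depp1 lay below 4 in both genotypes, with means of 3.09 in labelled mutant and 3.71 in control arrays. Its kainate means were 4.57 and 4.45, so the difference for Depp1 rests largely on poorly measured saline values. Activity genes that passed in control arrays and not in those labelled mutant were Ciart and Spty2d1 without the block. With the block Ciart passed in both, and Spty2d1, Dot1l, Nr4a3, Cwc25 and Mllt10 passed in control arrays alone. The Cwc25 probe set that passed lay below 4 in every saline array, with a mean of 3.34 in each genotype. It was tested only through arrays given kainate, so its change is poorly measured. The other Cwc25 probe set did not pass in control arrays with the block (limma adjusted p = 0.153). For Mllt10, the control kainate arrays numbered 2 and 3 read 3.67 and 2.37, so its change is poorly measured too. With the block, the adjusted p in control arrays and then in those labelled mutant was 0.000307 and 0.168 for Spty2d1, 0.0197 and 0.122 for Dot1l, 0.0318 and 0.0663 for Nr4a3, 0.0480 and 0.533 for Cwc25, and 0.0188 and 0.703 for Mllt10, which was lower in control kainate arrays, and the difference between genotypes passed for none of them. Spty2d1, a histone chaperone gene, read 5.61, 5.89 and 5.55 with saline and 6.43, 6.06 and 6.11 with kainate in arrays labelled mutant, a difference of 0.52 (limma adjusted p = 0.712). In control arrays it rose by 1.77 (adjusted p = 0.00399), and labelled mutant minus control was -1.26 (SE 0.273, unadjusted p = 0.000875, adjusted p = 1.00). Its other tested probe set gave -0.12 and 0.35 in labelled mutant and control arrays. For Ciart the control change was 1.81 (adjusted p = 0.00759) and the difference -0.69 (SE 0.305). Since Creb1 reads against the label, these signed differences hold for the arrays as labelled.

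**Figure D4:**
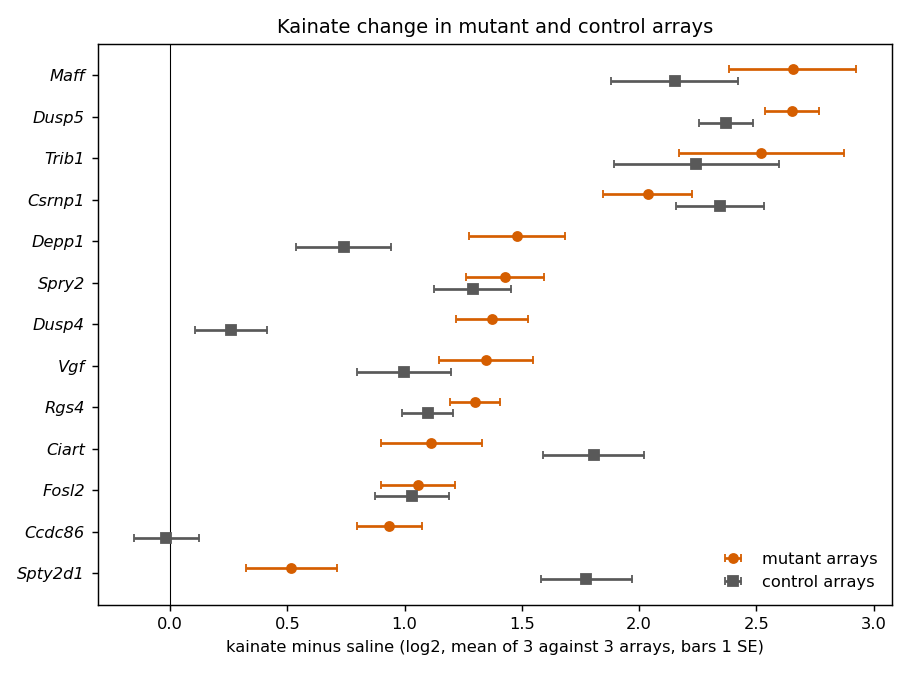
Kainate minus saline (log2, mean of 3 against 3 arrays) in arrays labelled mutant (orange circles) and control (grey squares), with bars of 1 standard error, for the 11 genes that rose in the former and for Ciart and Spty2d1, which passed in control arrays and not in the former. Dusp4 and Ccdc86 have the widest gaps in favour of labelled mutant arrays and Spty2d1 the widest in the other direction, and none of the gaps passed over all probe sets.

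How firmly each of the 11 stood was read from fits that left out 1 array at a time. Dusp5, Maff, Csrnp1, Spry2, Dusp4 and Rgs4 passed in all 12 such fits, and of these 6 Dusp5 and Rgs4 also passed in the fit of the 6 arrays labelled mutant alone, where the other 4 did not. Depp1 passed in 9, Trib1 in 8, Vgf in 5, Ccdc86 in 4 and Fosl2 in 3. Maff and Depp1 entered these fits only through the arrays given kainate, where they were high. Their passes thus repeat a contrast with saline values below the level of 4. Depp1 was lost without the saline array numbered 1 or a kainate array numbered 2 or 3 of those labelled mutant, and Trib1 without any labelled mutant array numbered 2 or 3. Vgf was lost without the same 4 arrays as Trib1 and without control saline 3, control kainate 2 or control kainate 3. Fosl2 and Ccdc86 were kept without the kainate array numbered 1 of those labelled mutant and lost without every other labelled mutant array. Fosl2 was also lost without any control saline array or control kainate 3, and Ccdc86 without control saline 2, control kainate 2 or control kainate 3. The range of the change over these fits and the other settings was 2.60 to 2.70 for Dusp5 and 0.84 to 1.10 for Ccdc86. Without the arrays numbered 1 in all groups, each of the 11 passed, with 2.92 for Maff, 2.94 for Trib1, 2.30 for Csrnp1, 1.41 for Spry2, 1.43 for Dusp4, 1.60 for Vgf and 1.10 for Ccdc86.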

How the data were processed

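Total RNA from pooled mouse hippocampi was hybridised to Affymetrix MG-U74B arrays, 12 in all. The deposited values are on a log2 scale and were made by the authors with GCRMA in R 2.4.1, per the submitters' processing notes. The method subtracts a background modelled on each probe's sequence and combines the probes of a set; its settings were not stated. The values ran from -1.05 to 14.95. Of 12477 entries, 66 control probe sets were left out. In the platform annotation, 10581 of the remaining 12411 probe sets had 1 gene symbol, 178 several and 1652 none; 10550 matched the RefSeq gene table (GRCm38.p6) by Entrez identifier and 0 symbols changed. Only probe sets with 1 symbol were named.

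Probe sets over 4 in at least 3 of 12 arrays (6334) were fitted over all 12 arrays with 1 mean per group in limma 3.58.1 (lmFit, and eBayes with an intensity trend; R 4.3.3), with Benjamini-Hochberg adjustment at 0.05 over all of them. A gene passed if any of its probe sets did. Adjusted p-values in the text are limma's. The replicate number was added as a block in a further fit. The numbers pair the arrays: deviations from the group means correlated with r from 0.361 to 0.881 in all 18 pairs of the same number in different groups, and from -0.782 to 0.583 in the 36 pairs of different numbers. Blocked values stand beside a result where they alter a call or move a count. No 2 arrays were identical, with correlations from 0.910 to 0.991.

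Named genes were those that passed with or without the block, activity genes with a change of at least 0.5 and 1 sign within all 3 numbers, the 10 highest and 10 lowest changes with 1 sign and no overlap, the other probe sets of these genes, Creb1, Crem, Grik1 to Grik5, up to 3 genes of each other list, and activity genes that passed in control arrays alone. Other genes of the lists are given as further values. The genes and lists were chosen with earlier results of these data known. Other normalizations, filters, left-out arrays and the block were tried, and the fits were tested on simulated data.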

Additional observations from a re-analysis of the deposited data

Results flagged for a closer look

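The Tmem106b probe set with the smallest change of its 3 had values in opposite directions in the 2 genotypes: it was lower after kainate within all 3 numbers of the arrays labelled mutant and higher within all 3 numbers of the control arrays. The difference of the responses was -0.16 on the log2 scale, and limma gave it an unadjusted p of 0.333 and an adjusted p of 1.00. The other Tmem106b probe sets were not opposed in this way.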

How the results depend on the processing

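With all 12 arrays and no block, 11 probe sets rose in the arrays labelled mutant, 0 fell, 11 activity genes rose, 10 probe sets passed in control arrays and the genotype difference passed for 0, as it did under every setting where it could be fitted. The replicate block gave 18 that rose, 5 that fell, 15 activity genes and 37 in control arrays, and with quantile normalization as well it gave 17, 4, 14 and 26. A fit of the 6 arrays of 1 genotype left 2 that rose (2 activity genes) and 4 in control arrays, and with the block 1 (1 activity gene) and 31; fewer arrays enter these fits. Quantile normalization, median centring, no filter on level and a level of 6 each gave 10 that rose, a level of 4 in 3 of the 6 arrays labelled mutant and a fit with no intensity trend each gave 12, and none fell; 9 of the 10 with quantile normalization were among the 11. Fits that each lacked 1 array gave 6 to 13 that rose, 0 to 4 that fell, 6 to 12 activity genes and 4 to 14 in control arrays, with the fewest without kainate array 2 or 3 of those labelled mutant (6), and 7 without saline array 2 or 3. Leaving out number 1 in all groups gave 272, 324, 20 and 637, and the block on the arrays numbered 2 and 3, an alternative chosen after seeing the data, gave 325, 405, 21 and 791; the cause was not tested. No value called with all 12 arrays changed sign under any of these settings, while a Tmem106b probe set that fell by 0.69 without number 1 was at 0.02 without kainate array 2 of those labelled mutant. Values under 4 are close to the floor of the array, so that the changes of Maff and Depp1 rest on saline levels that are poorly measured.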

Other observations

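Probe sets with no gene symbol also moved. One of them read 6.85, 6.85 and 6.53 with saline and 8.20, 7.61 and 7.81 with kainate in the arrays labelled mutant, a log2 change of 1.13 that passed in limma with the replicate block (adjusted p = 0.0124) and not without it (0.194). Another fell by 0.96, from 5.48, 4.87 and 4.82 to 4.50, 3.88 and 3.91 (0.0246 with the block and 0.723 without it).

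The mice were of both sexes, and the sex make-up of each pool is not stated. Of 2 probe sets of Kdm5d, which lies on the Y chromosome, 1 stayed between 2.83 and 3.07 in the 6 arrays labelled mutant, and the other read 3.94, 3.12 and 4.33 in the saline and 5.77, 3.44 and 3.94 in the kainate arrays labelled mutant that are numbered 1, 2 and 3. Xist, which is expressed from the inactive X chromosome, read 3.45, 6.37 and 3.83 with saline and 3.33, 3.97 and 3.8 with kainate. The part of sex in the results was not tested.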
